A study of Homo sapiens with 2 samples.

Results

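Nuclear receptors are transcription factors that bind DNA through a conserved zinc-finger domain, and many of them are switched by small lipid-soluble ligands such as steroid hormones, retinoic acid, thyroid hormone and vitamin D. Other members of the family have no known natural ligand and are regulated mainly by how much of them is made. In the airway the glucocorticoid receptor is the target of inhaled steroids, and retinoid receptors are known for their part in keeping the epithelium differentiated. The 46 nuclear receptor genes described here were taken from a fixed list of gene symbols, and all 46 were found among the 20007 protein-coding genes of the GENCODE 44 annotation. The list is not a complete roll of the family. Open chromatin at these genes was read from ATAC-seq peak lists of B2B cells. ATAC-seq marks accessible DNA by where the Tn5 transposase inserts sequencing adapters.

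B2B stands for BEAS-2B, an immortalised, non-cancerous line of human bronchial epithelial cells, labelled as wild type with no treatment listed and grown in medium with serum. It was profiled in 2 biological replicates, and peaks were called separately for each. With a single condition the data hold no contrast between groups, so all values below are descriptions without a test. Each peak carries a fold enrichment, which is the ratio of the fragments at its summit to the local background with 1 added to both, and a −log10 q, which is the strength of the call after adjustment over the genome. The number of fragments at each summit was solved from the fold enrichment and the p-value.

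The lists held 28735 and 36162 peaks on the chromosomes used, with a genome-wide background of 4.77 and 3.41 fragments in replicates 1 and 2. The weakest summits in the lists had 16 and 13 fragments. A promoter with no peak had too few fragments over its local background to be listed, and whether it was closed is not known. The epithelial label was checked against promoter peaks of marker genes. Of 12 epithelial marker genes, 1 had a promoter peak in each replicate, namely KRT18, whereas CDH1, EPCAM, KRT5, KRT14 and TP63 were among the 11 that did not. Of 12 mesenchymal marker genes 8 had one, VIM, FN1 and CDH2 among them. Over all protein-coding genes 52.3% had one in each replicate. At the rate of all genes of similar promoter CpG content, 5.32 of the epithelial and 5.86 of the mesenchymal genes would have had one. Counting any annotated start site, ELF3, COL1A2 and ZEB2 had a peak in each replicate as well. The defining epithelial markers were therefore mostly without a promoter peak, and B2B is used below as the name of the line only.

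The promoter window reached 1 kb up- and downstream from the start site (TSS) of the canonical transcript, and a promoter is called open where both lists had a peak there. By this measure 22 of the 46 receptor genes were open, which is 47.8% (95% Wilson interval 34.1 to 61.9, counting error only). Over all protein-coding genes 52.3% were open, so the family as a whole stood near the background. In replicate 1 a promoter peak was found at 23 receptor genes, where the background was 53.2%. In replicate 2 it was also found at 23, where the background was 58.0%. In at least 1 replicate it was found at 24, where the background was 59.0%. Only 2 genes differed between the lists. RORB had a peak in replicate 1 alone and NR2F6 in replicate 2 alone. The remaining 22 genes had a promoter peak in neither replicate.

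Every open promoter is shown in the plot of fold enrichment and fragments by gene. The mean fold enrichment over the replicates ran from 3.97 at PPARG to 16.9 at NR3C2. Taking each gene's highest promoter peak, the median was 6.62 ± 1.15 (SD, n = 2) over the open receptor genes and 8.89 ± 1.06 (SD, n = 2) over all open protein-coding genes. In fragments the medians were 38.5 and 36 at the receptor genes against 47 and 46 at all open genes in replicates 1 and 2. No test was made of these differences. Across the 22 open receptor genes Spearman's rho between replicates was 0.759 for fold enrichment and 0.832 for fragments. These describe agreement over genes of the same libraries, and genes are not independent replicates.

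**Figure D1:**
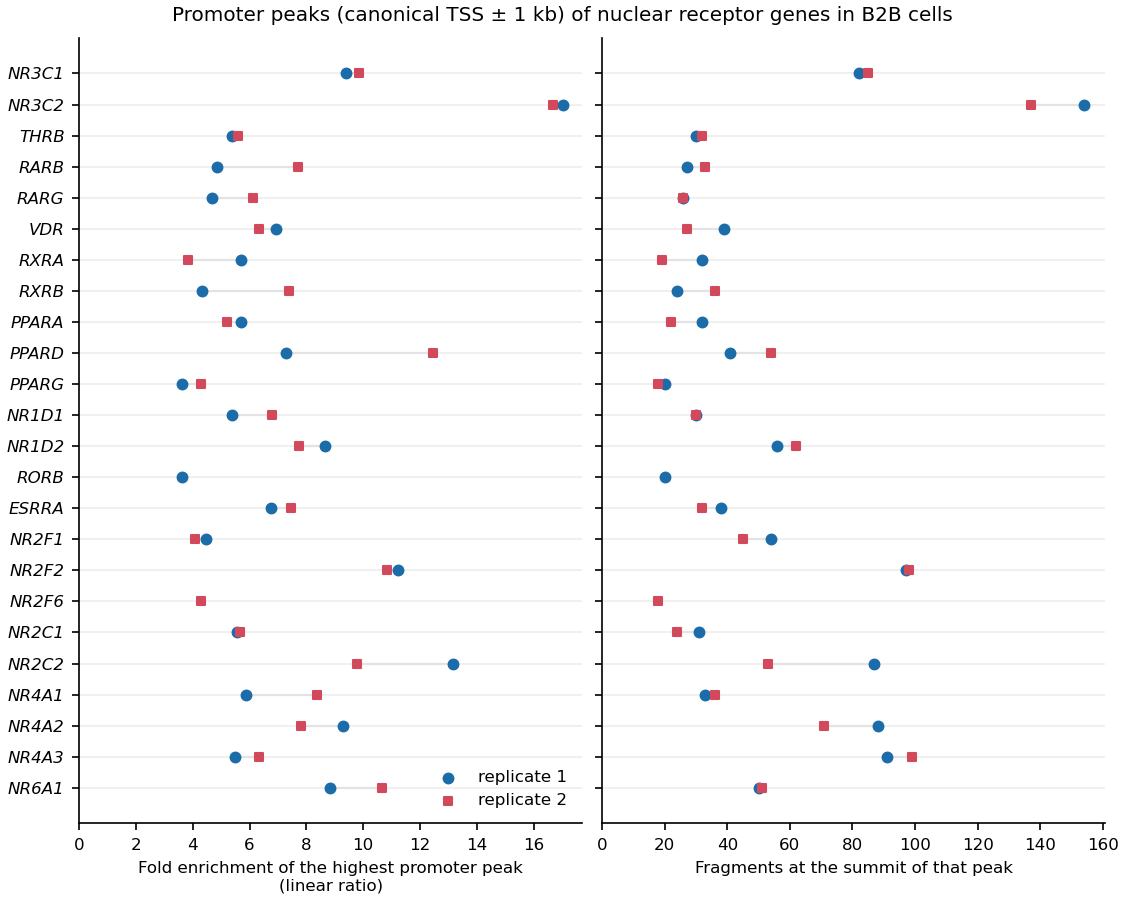
Highest promoter peak of each nuclear receptor gene with a peak in at least 1 replicate, as fold enrichment (left, linear ratio) and as fragments at its summit (right). Circles are replicate 1, squares are replicate 2 and grey lines join the replicates. NR3C2 stands highest on both scales, with 154 and 137 fragments, whereas NR4A3 is near the middle in fold enrichment but has 91 and 99 fragments.

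The steroid hormone receptors were divided. NR3C2, the mineralocorticoid receptor, had the strongest promoter peak of the family. It reached 17.0-fold enrichment in replicate 1 and 16.7-fold in replicate 2, with 154 and 137 fragments at summits that lay 206 and 196 bp upstream of the TSS. Of all open protein-coding genes 93.6% had a lower mean fold enrichment. NR3C2 lies on the minus strand of chromosome 4 (hg38, 148078762 to 148444698), and no further peak of either replicate fell inside this gene of 366 kb.

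NR3C1, the glucocorticoid receptor, lies on the minus strand of chromosome 5 from 143277931 to 143435512. Its promoter peak was the widest of the family in each replicate, at 1157 and 1253 bp. The fold enrichment was 9.41 and 9.84, with 82 and 85 fragments, and the replicates differed little. Peaks on chromosome 5 beyond 80 Mb, where NR3C1 and NR2F1 lie, had a median of 43 and 37 fragments against 35 and 30 elsewhere, and the part of this shift in the values of these genes was not tested. By contrast, ESR1 and ESR2, the estrogen receptors, and PGR, the progesterone receptor, had no promoter peak in either replicate. The nearest summit to the PGR start lay 253 kb away in each list, and the gene body of PGR held none.

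The sequence just upstream of the NR3C2 start is shown because it underlies the strongest peak, and that of NR2F2 because it is the next in fragments. The NR3C2 stretch is on chr4:148442544-148442694 (hg38, minus strand) and the NR2F2 stretch on chr15:96330470-96330640 (hg38, plus strand). Capitals mark CCAAT, which was chosen after the sequences were seen, and the GC box GGGCGG, a pair of short elements common in promoters. From 250 bases before to 50 after the TSS, 36.1% of all promoters held CCAAT and 61.3% held the GC box, on either strand.
NR3C2: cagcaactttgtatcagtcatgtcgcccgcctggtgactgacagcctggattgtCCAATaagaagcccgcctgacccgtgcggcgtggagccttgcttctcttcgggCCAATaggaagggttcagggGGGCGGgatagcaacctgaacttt
NR2F2: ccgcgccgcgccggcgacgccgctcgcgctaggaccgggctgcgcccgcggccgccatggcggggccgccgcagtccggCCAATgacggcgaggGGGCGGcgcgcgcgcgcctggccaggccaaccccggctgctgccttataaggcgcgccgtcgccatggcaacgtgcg

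NR2F2 belongs to the COUP-TF group, orphan receptors with roles in mesenchymal and vascular development. Its promoter peak had a fold enrichment of 11.2 and 10.8, with 97 and 98 fragments. NR2F1, its close relative, was open at a different place. Its peak spanned the edge of the promoter window downstream of the TSS, with summits 884 and 1207 bp past the start and 54 and 45 fragments. The local background there was 11.3 and 10.3 fragments, and the fold enrichment, taken against it, was 4.48 and 4.08. Another annotated start of NR2F1 lies within 1 kb of this peak. With a window of 500 bp NR2F1 was no longer counted as open. At NR2F6, the third gene of the group, replicate 2 had a weak peak with 18 fragments and a −log10 q of 5.79, and replicate 1 had none.

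Among the receptors for thyroid hormone, retinoic acid and vitamin D, THRB, RARB, RARG and VDR were open and THRA and RARA were not. The promoter of VDR, the vitamin D receptor, had a fold enrichment of 6.93 and 6.34. At THRB, a thyroid hormone receptor, the promoter window held 3 peaks in replicate 1 and 2 in replicate 2, the highest at 5.37 and 5.59. These lay at different places, 164 bp upstream of the TSS in replicate 1 and 461 bp downstream in replicate 2, where the upstream peak had 5.28. At RARB the fold enrichment was 4.85 and 7.70, with 27 and 33 fragments. At RARG it was 4.68 and 6.12, with 26 fragments in each replicate. Both of these retinoic acid receptors had the higher fold enrichment in replicate 2. The background at these peaks was 4.77 fragments in replicate 1 and 3.41 in replicate 2. THRA had no peak although its promoter held 107 CpG dinucleotides, and 74.3% of all promoters in its CpG group were open. RARA had none at its canonical TSS, where 23 CpG were counted.

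The RXR genes encode the common partner with which many nuclear receptors pair on DNA. RXRA had a fold enrichment of 5.72 in replicate 1 and 3.82 in replicate 2, and RXRB had 4.33 and 7.38, so the replicates put these genes in opposite orders. The TSS of SLC39A7, transcribed the other way, lies within 1 kb of that of RXRB, and the RXRB peak cannot be assigned to either gene. The same holds for the promoter peaks of THRB, VDR and NR2C2, which have the TSS of a lncRNA on the other strand within 1 kb (THRB-AS1, ENSG00000278385 and FGD5-AS1). RXRG, the third member, had no promoter peak and no peak in its gene body.

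Of the 8 lipid and xenobiotic sensors 3 were open, where the share over all protein-coding genes was 52.3%. All 3 were PPAR genes, which encode fatty acid sensors. PPARD had a fold enrichment of 7.28 and 12.5 and PPARA one of 5.72 and 5.21. PPARG was the weakest open promoter of the family. Its peaks had 20 and 18 fragments with summits 1109 and 1044 bp upstream of the canonical TSS, among the starts of other annotated transcripts of the gene. The call at PPARG was lost with a window of 500 bp and when peaks under a −log10 q of 5 were left out. Neither the LXR genes NR1H2 and NR1H3, which sense oxysterols, nor NR1H4 (the bile acid receptor), NR1I2 and NR1I3 (the xenobiotic receptors) had a promoter peak. NR1H2 stood apart among these 5, since its promoter held 66 CpG where the other 4 held 10 to 18. Of all promoters in its CpG group 73.6% were open, against 6.5% in the group of the other 4.

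The REV-ERB genes NR1D1 and NR1D2, repressors in the circadian clock, were both open. At NR1D1 the fold enrichment was 5.37 and 6.79. NR1D2 had a pair of promoter peaks in each replicate, and the higher one lay downstream, with summits 731 and 719 bp past the TSS and 56 and 62 fragments. RORA and RORB, which act on the same sites as activators, were not open at the canonical TSS. The peak of RORB in replicate 1 had 20 fragments and a −log10 q of 4.81, and 1.65% of the peaks of that list were weaker.

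All 3 NR4A genes, which are immediate-early genes switched on within minutes of many stimuli, were open. In their CpG groups 71.9% to 76.4% of all promoters were open. NR4A1 had 33 and 36 fragments, NR4A2 had 88 and 71, and NR4A3 had 91 and 99. NR4A2 also had a weaker peak about 600 bp downstream of the TSS in each replicate, with 44 and 36 fragments. NR4A3 had rank 3 in the family by fragments and rank 14 by fold enrichment. The local background at NR4A3 was 15.8 and 14.8 fragments, the highest at any open receptor promoter, and the fold enrichment of 5.49 and 6.33 is taken against it.

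The upstream sequences of NR4A2 and NR4A3 are shown because CREB binds cyclic AMP response elements (CRE) in genes of this kind. The full element TGACGTCA was found in 2.69% of all promoters and in those of NR4A2, NR6A1 and NR2E1 among the receptor genes. The shorter TGACGT, also chosen after the sequences were seen and held by 9.5% of all promoters, occurred 3 times at NR4A3, and 0.385% of all promoters had as many matches, where a full element counts on both strands. NR4A2 is shown on chr2:156332781-156332921 (hg38, minus strand) with the full element and a GC box in capitals, and NR4A3 on chr9:99821685-99821884 (hg38, plus strand) with TGACGT in capitals. The promoter of NR4A1 had no match to TGACGT in the window searched.
NR4A2: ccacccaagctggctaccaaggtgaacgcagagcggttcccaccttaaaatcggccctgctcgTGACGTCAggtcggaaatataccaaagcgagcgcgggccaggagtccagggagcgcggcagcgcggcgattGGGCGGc
NR4A3: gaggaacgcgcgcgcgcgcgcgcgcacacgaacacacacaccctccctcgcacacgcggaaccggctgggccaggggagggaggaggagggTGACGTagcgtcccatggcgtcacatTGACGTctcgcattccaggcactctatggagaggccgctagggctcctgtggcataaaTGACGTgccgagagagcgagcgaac

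Of the orphan receptors NR2C1 and NR2C2, both were open. NR2C1 had a fold enrichment of 5.54 and 5.66. NR2C2 was next to NR3C2 by the mean fold enrichment, at 13.2 and 9.77, although in replicate 2 PPARD, NR2F2, NR6A1 and NR3C1 were higher and by fragments NR2C2 had rank 6. These values belong to a peak with its summit 939 and 871 bp downstream of the TSS. The peak at the NR2C2 start itself had 6.92 and 6.97. NR6A1, known from germ cells and early embryos, was open at 8.84 and 10.7, whereas NR5A1, the steroidogenic factor whose TSS lies 264 kb away on the same strand of chromosome 9, was not. ESRRA, an estrogen-related receptor that acts on mitochondrial genes, was open at 6.76 and 7.48, and ESRRB and ESRRG were not. HNF4A, HNF4G, NR2E1, NR2E3, NR5A2, NR0B1 and NR0B2, which are best known from liver, gut, brain, retina and steroid-producing tissue, had no promoter peak in either replicate.

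NR6A1 is shown as the other open receptor promoter with the CRE, and NR2C1 as the 1 open receptor promoter with the AP-1 site or the E-box in the stretch searched. Over all promoters 3.57% held the AP-1 site, 8.76% the E-box and 22.8% the ETS core. NR6A1 is on chr9:124771312-124771561 (hg38, minus strand) with the ETS core CCGGAA and the CRE in capitals. NR2C1 is on chr12:95073619-95073868 (hg38, minus strand) with the AP-1 site TGACTCA and the E-box CACGTG in capitals, and this AP-1 site lies over 100 bp from both summits of the NR2C1 peak.
NR6A1: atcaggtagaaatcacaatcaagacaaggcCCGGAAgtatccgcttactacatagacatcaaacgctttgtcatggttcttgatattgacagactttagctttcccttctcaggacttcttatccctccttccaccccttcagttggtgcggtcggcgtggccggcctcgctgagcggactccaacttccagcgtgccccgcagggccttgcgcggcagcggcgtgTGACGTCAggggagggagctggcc
NR2C1: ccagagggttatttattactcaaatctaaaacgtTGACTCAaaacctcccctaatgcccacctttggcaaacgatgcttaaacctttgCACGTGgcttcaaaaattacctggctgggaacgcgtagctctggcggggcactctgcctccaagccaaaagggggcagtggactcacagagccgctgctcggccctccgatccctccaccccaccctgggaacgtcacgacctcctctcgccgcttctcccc

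Open and other receptor promoters differed in CpG content, counted in the 1 kb centred on the TSS. The 22 open promoters held a median of 84.5 CpG (range 24 to 179), and the 22 without a peak held a median of 33 (range 1 to 107). Fewer than 41 CpG, the limit of the 3 lowest of 10 equal groups of all genes, were found at 13 of the promoters without a peak and at 3 of the open ones, namely PPARG, RARB and NR2F1. If each receptor gene had been open at the rate of all genes in its CpG group, 23.3 would have been open, against 22 measured. The receptor genes that went against their CpG group with more than 70 CpG and no peak were THRA, RORA, ESR1 and NR0B1, and NR2F6 with 137 CpG had a peak in replicate 2 only.

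**Figure D2:**
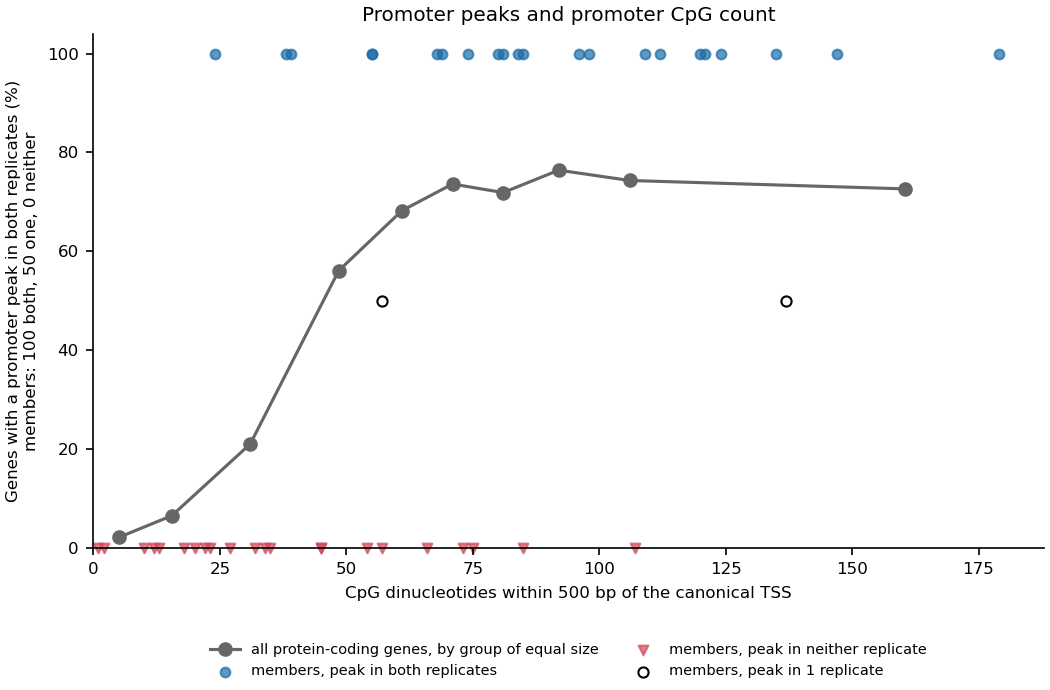
Share of protein-coding genes with a promoter peak in both replicates (percent) against CpG dinucleotides in the surrounding 1 kb, with all genes split into 10 equally large groups (grey line), with the receptor genes marked at 100 (peak in both), 50 (peak in 1 replicate) or 0 (neither). The share is 2.10% in the group with the fewest CpG and reaches its highest value of 76.4% at 86 to 98 CpG, with 72.6% in the group with the most CpG, and 13 of the 22 receptor genes at 0 have fewer than 41 CpG.

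Many receptor genes have further start sites, and 42 of the 46 had an annotated TSS more than 1 kb from the canonical one. At 14 genes at least 1 of these had a peak in each replicate, which is 30.4%, where the share over all protein-coding genes was 12.5%. The number of annotated starts per gene was not matched. When only transcripts of the basic set of GENCODE were used, 11 receptor genes had such a peak, and the share over all genes was not computed for that set. In 11 of the 14 the peak formed a region of its own, apart from the canonical promoter. Counting any annotated TSS, 27 receptor genes were open, against 56.2% of all protein-coding genes. The 5 genes gained were ESR2, RARA, RORA, ESRRG and HNF4G.

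At these 5 genes the open start was far from the canonical one except at RARA. In RARA it lay 9.05 kb downstream in the first intron, with a fold enrichment of 4.33 and 5.97. The TSS of a lncRNA lies within 1 kb of this region. In ESR2 a pair of adjoining regions lay 43.7 and 44.5 kb upstream at a distal start, the higher one at 10.7 and 11.7, and a lncRNA starts there as well. In RORA it lay 637 kb downstream at the start of the shorter transcripts, at 5.02 and 4.30, and a lncRNA TSS lies within 1 kb. The peaks at these starts of RARA, ESR2 and RORA cannot be assigned to either gene. In ESRRG it lay 366 kb upstream at 6.58 and 4.98, and in HNF4G 132 kb upstream at 4.33 and 5.66. NR3C1, RARB, RARG, VDR, RXRA, PPARG, NR2F1, NR2C2 and NR4A2 were open at another start as well as at the canonical one. At VDR a lncRNA TSS lies within 1 kb of the region at the other start, and this peak cannot be assigned to either gene. At NR3C1, NR2F1 and NR2C2 the peak near the other start was not apart from the canonical promoter. At NR4A2 the upstream start had regions of 10.3 and 11.5 and of 10.4 and 10.1, each higher than its canonical promoter, and at RARG the internal start had 6.06 and 10.2.

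Away from the promoters, 18 of the receptor genes held at least 1 region with a peak in each replicate inside the gene, where the share over all protein-coding genes was 24.2%. The receptor genes are long, with a median of 53.6 kb against 27.5 kb, and 15.7 would have held such a region at the rate of genes in the same of 10 length groups. There were 51 such regions, against 33.6 by the mean of the length groups, and 31 more regions were in 1 replicate only. Per Mb of gene, the regions numbered 7.97 at receptor genes and 6.62 at all protein-coding genes. RARB at 910 kb and RORA at 741 kb fall in the longest group, which has no upper limit. Of the 51 regions 37 were in introns of the canonical transcript, 9 of them in the first, and 11 overlapped the surroundings of another start of the same gene. None lay near the TSS of another protein-coding gene but 7 lay near that of a lncRNA or other gene, among them 2 of NR6A1 at MIR181A2HG, and the fold enrichment was higher in replicate 2 for 41.

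ESR1 and THRB had the most, with 8 regions each, followed by RARB with 6, RXRA with 4, and ESR2, RARA, NR4A2 and NR6A1 with 3 each. ESR1 had these regions without a promoter peak. The strongest ESR1 region lay in intron 7, 288 kb past the TSS, at 12.4 and 13.0, with 73 and 66 fragments. The next lay 43.6 kb upstream of the canonical TSS within the span of the gene, at 11.4 and 13.4. The other 6 ESR1 regions had mean fold enrichments from 4.46 to 7.83. In THRB all 8 had their summits in introns, with 1 region also covering exon 7, and all had the higher fold enrichment in replicate 2. The strongest lay in intron 5 at 9.18 and 15.9, with 52 and 69 fragments. By fragments not all were higher in replicate 2, since a region of intron 1 had 34 and 27.

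The strongest region in any receptor gene was in RARB, in intron 5, 154 kb past the TSS (chromosome 3, 25582028 to 25582596). Its fold enrichment was 22.5 and 23.8, with 129 and 132 fragments, so it exceeded the RARB promoter more than 3-fold in either replicate. The other regions past the promoter of RARB had lower values, the highest of them at 8.14 and 12.0 in intron 2 and at 9.88 and 9.06 in intron 5. At PPARG the single gene-body region had 15.2 and 15.2, with 87 and 66 fragments. It overlapped exon 6 of the canonical transcript and the start of a retained-intron transcript, and was stronger than the PPARG promoter peak, which had 3.64 and 4.30. In ESRRG a region of intron 3 had 13.7 and 11.6. These and the first ESR1 and THRB regions make up the 5 strongest gene-body regions by mean fold enrichment together with that of RARB.

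**Figure D3:**
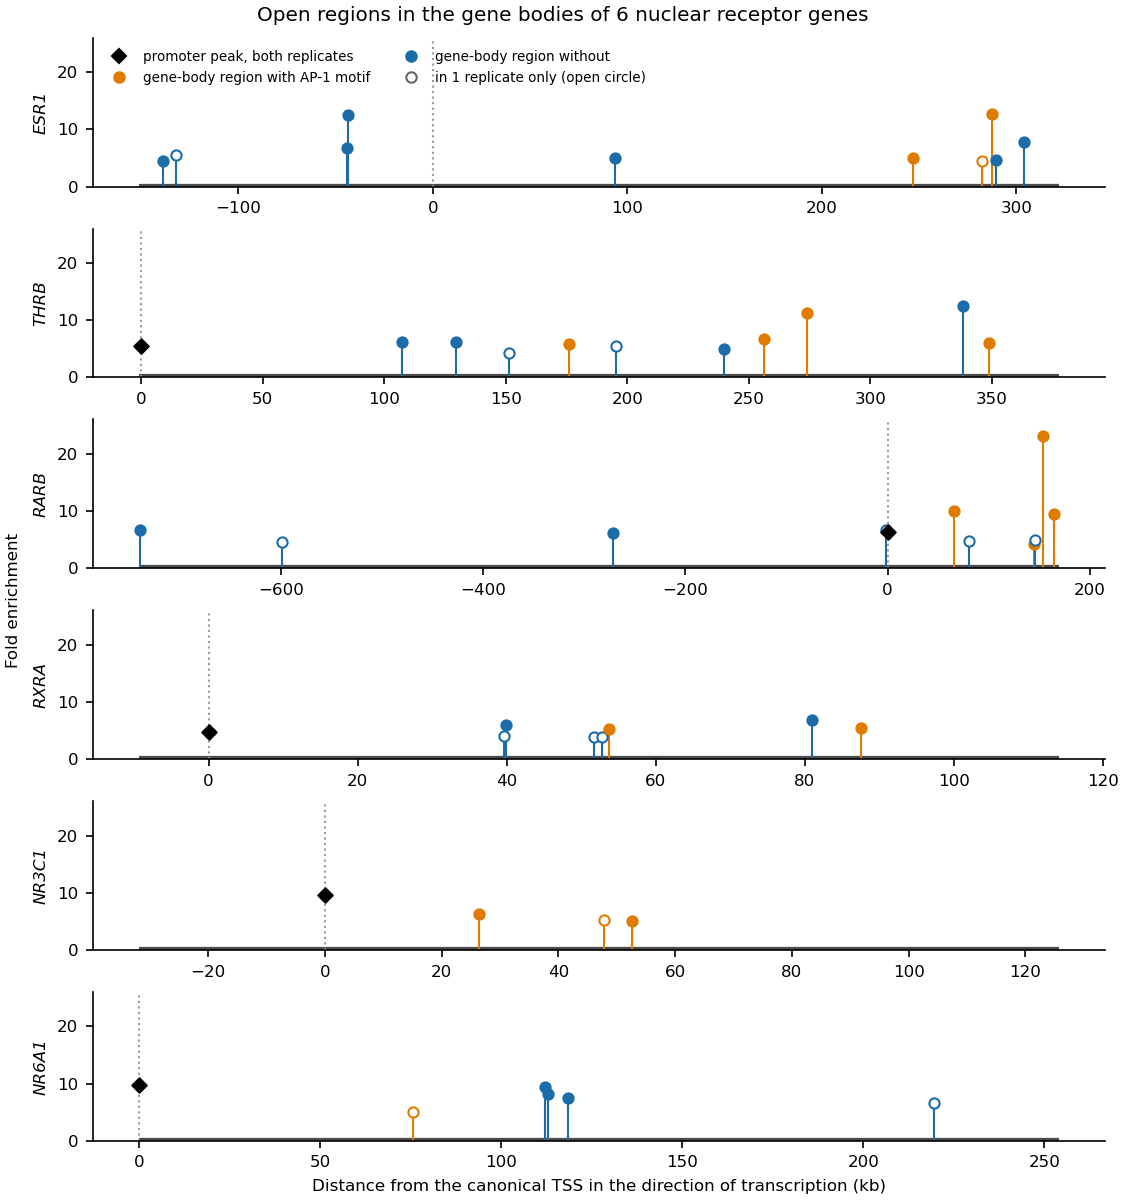
Open regions within 6 receptor genes by distance from the canonical TSS in the direction of transcription (kb), with stem height as the mean fold enrichment over the replicates, or the single value for regions in 1 replicate (open circles). Orange stems hold the AP-1 site within 100 bp of the summit, blue stems do not, diamonds mark promoter peaks in both replicates and the grey bar is the annotated gene. ESR1 has no diamond, and the RARB region of intron 5 at 23.1 is the highest.

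The letters around the summits were searched for short motifs on both strands within 100 bp. The AP-1 site, TGACTCA or TGAGTCA, was found at none of the 27 promoter regions of the receptor genes, which allows a share of up to 12.5% (upper Wilson bound), where 2.91% of all promoter regions held it. In the gene-body regions it was found in 18 of 51, or 35.3% (23.6 to 49.0), where 33.3% of the 7390 gene-body regions of all protein-coding genes away from promoters held it. The receptor genes were therefore close to the background in both classes. The 18 regions came from 9 genes. RARB and THRB had 4 each, and both NR3C1 regions in intron 2 held it. The median fold enrichment was 6.16 for the 18 regions with the site and 6.69 for the 33 without.

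The hexamer AGGTCA, which most nuclear receptors read as the unit of their binding sites, was found in 8 of the 51 gene-body regions, or 15.7% (8.17 to 28.0), against 12.3% of all. Directly repeated hexamers with 1 to 5 bases between them, and the palindromic steroid receptor element were found in none of the receptor regions, and in at most 0.0135% of all regions of a class. The repeat with no base between, AGGTCAAGGTCA, was found in 1 of the 7390, and this 1 was the RARB region of intron 5. It holds within it TCAAGGTCA, which is the extended site read by the estrogen-related receptors and NR5A proteins. A match in open DNA does not show that a factor was bound there.

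The summits of the strongest RARB and ESR1 regions and of the highest AP-1 regions of THRB and NR3C1 are shown, as the sequence behind the gene-body findings. Capitals mark the AP-1 site and, in RARB and ESR1, AGGTCA or its reverse complement TGACCT. RARB is on chr3:25582331-25582481 (hg38, plus strand), ESR1 on chr6:152095223-152095423 (plus strand), THRB on chr3:24220946-24221096 (minus strand) and NR3C1 on chr5:143377263-143377413 (minus strand).
RARB: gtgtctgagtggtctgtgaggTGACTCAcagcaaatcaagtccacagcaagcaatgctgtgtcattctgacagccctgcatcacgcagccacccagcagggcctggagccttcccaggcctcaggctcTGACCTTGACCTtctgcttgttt
ESR1: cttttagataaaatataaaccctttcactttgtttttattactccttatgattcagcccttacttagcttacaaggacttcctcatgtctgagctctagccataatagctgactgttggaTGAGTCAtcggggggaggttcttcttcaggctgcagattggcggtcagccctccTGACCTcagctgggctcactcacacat
THRB: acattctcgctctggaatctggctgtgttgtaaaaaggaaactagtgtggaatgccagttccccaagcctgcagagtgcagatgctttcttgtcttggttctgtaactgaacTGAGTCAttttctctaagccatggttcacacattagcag
NR3C1: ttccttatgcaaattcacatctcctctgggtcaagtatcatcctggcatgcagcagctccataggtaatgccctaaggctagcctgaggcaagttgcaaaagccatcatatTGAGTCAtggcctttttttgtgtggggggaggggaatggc

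Groups of 3 receptor genes lie near each other on chromosomes 3 and 17. On chromosome 3, NR1D2, THRB and RARB follow each other with starts 550 and 933 kb apart. All 3 were open and had 14 gene-body regions between them, in THRB and RARB. Over all protein-coding genes 52.3% were open and 24.2% held a gene-body region. THRB and RARB are in the longest length group, which had a mean of 1.86 regions per gene. On chromosome 17, THRA, NR1D1 and RARA lie with starts 37.6 and 209 kb apart, and only NR1D1 was open at the canonical TSS. In their CpG groups 74.3%, 56.1% and 21.0% of all promoters were open, in this order. NR1D1 had 1 gene-body region and RARA had 3, while THRA had none.

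Proteins that work with the receptors were read from fixed gene lists in the same way, and each count stands beside the 52.3% of all protein-coding genes. All 10 genes of the receptor chaperones, which hold steroid receptors ready for ligand, were open, with STIP1, HSPA8 and HSP90AA1 the highest at mean fold enrichments of 13.5, 12.2 and 9.06. By CpG content alone 7.32 would have been open. Of 15 coactivator genes 10 were open, against 10.1 by CpG content, led by NCOA4 at 12.8, NCOA2 at 10.9 and PRMT1 at 10.1. CREBBP and MED1 had no promoter peak in either replicate, and NCOA6, PPARGC1A and SMARCA4 had one in replicate 2 only. Of 10 corepressor genes 7 were open, against 7.30 by CpG content, among them HDAC3 at 12.0, NCOR1 at 8.38 and NRIP1 at 8.38, and TBL1X, GPS2 and HR were not, although GPS2 had 7.48 and HR had 4.76 in replicate 2.

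Genes that make, carry or break down receptor ligands were open at 5 of 20, or 25.0% (11.2 to 46.9), where 10.6 would have been open by CpG content. The 5 were RDH10, SRD5A1, ALDH1A3, DHRS3 and HSD11B2. The 3 CYP26 genes, which degrade retinoic acid, the retinoid carriers CRABP1 and CRABP2, and DIO1, DIO2 and DIO3, which convert thyroid hormone, had no promoter peak in either replicate. The same held for ALDH1A1, CYP27B1, HSD11B1 and CYP19A1. CYP24A1, which degrades vitamin D, had a peak in replicate 1 only, with 22 fragments, and so did ALDH1A2, with 27.

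Known target genes of the receptors, and genes of the circadian clock, were counted by pathway. Of 12 glucocorticoid receptor targets 7 were open, against 7.16 by CpG content, among them BIRC3 at 8.32, ERRFI1 at 7.62 and TSC22D3 at 7.02. SGK1 and ANGPTL4 had no promoter peak in either replicate, while PER1 and ZBTB16 had one in replicate 2 only and CRISPLD2 in replicate 1 only. The list counts use the canonical TSS. Counting any annotated TSS, SGK1, ANGPTL4, PER1 and ZBTB16 had a peak in each replicate (56.2% of all protein-coding genes). So did STRA6, BHLHE41, GATA3 and KRT8 of the other target and clock lists, and NCOA6, TBL1X, HR and ALDH1A2 of the lists above. Of 15 genes of the circadian clock, in which the REV-ERB and ROR proteins act, 12 were open, against 10.8 by CpG content. PER3 at 16.7 and BMAL1 at 16.6 were the highest, followed by PER2 at 10.4. NPAS2 had no promoter peak in either replicate, and PER1 and BHLHE41 had one in a single replicate. Of 13 PPAR and LXR targets 6 were open, against 7.46 by CpG content, led by MYLIP at 12.6, LPCAT3 at 10.2 and SCD at 9.12, and ANGPTL4, CPT1A, FABP4, CD36, ABCG1 and SREBF1 were among those without a peak. Of 10 targets of the retinoic acid and vitamin D receptors 2 were open, DHRS3 among them, against 5.92 by CpG content, and 6 of these 10 genes are also in other lists. Of 10 targets of the estrogen and progesterone receptors 2 were open, XBP1 and FOXA1, against 4.92 by CpG content. The 95% Wilson intervals of these lists are wide, at 32.0 to 80.7% for the glucocorticoid receptor targets and 5.67 to 51.0% for the retinoic acid and vitamin D receptor targets, and no test was made between lists.

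**Figure D4:**
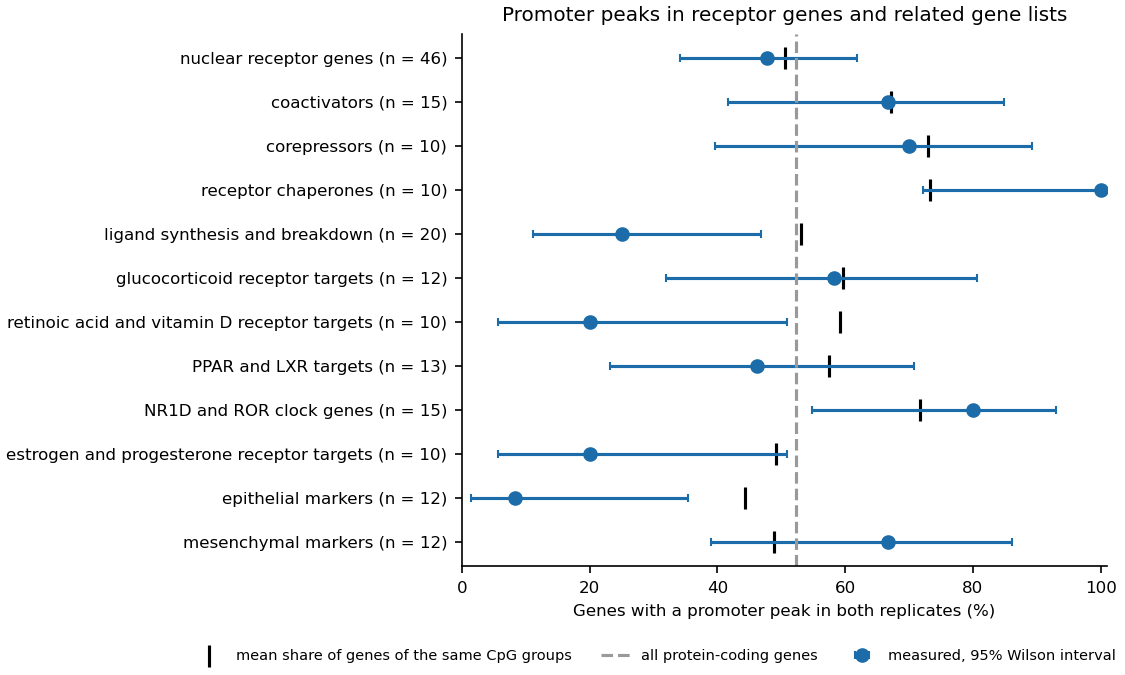
Share of genes with a promoter peak in both replicates (percent) for the receptor genes and each related list, with 95% Wilson intervals, the mean share of all genes in the same CpG groups (black ticks) and the share of all protein-coding genes (dashed line, 52.3%). The receptor genes sit at 47.8%, near both references, the chaperones at 100%, and the ligand metabolism genes at 25.0%.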

How the data were processed

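Peak lists of 2 B2B replicates were analysed, which the authors made by mapping reads to hg38 with Bowtie2 2.4.4, removing duplicates with their own code and calling peaks with MACS2 2.2.7.1 on each replicate. The q limit of the calls and any shift of Tn5 cut positions are not given in the sources used here. Per the file columns, the deposited fold enrichment is a linear ratio, and the significance of each deposited peak is given as −log10 values of p and q. A deposited score, derived from the q-value, was left aside. Only the autosomes (1 to 22) and the sex chromosomes entered. The fragment number of a summit is the one that yields its fold enrichment and its p-value together, and came out whole within 0.01 of the −log10 p for 99.9% of the peaks of either list.

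TSSs came from GENCODE 44, which is on the build of the files. Peaks were matched by an overlap of at least 1 bp. CpG and length groups are 10 groups of equal size over all protein-coding genes. The motifs searched on both strands were the AP-1 site, the CRE, the E-box, the hexamer AGGTCA alone and directly repeated with 0 to 5 bases between, the palindromic steroid receptor element, the GC box and the ETS core, and, added after the sequences were seen and in promoters only, CCAAT and TGACGT. Shares have 95% Wilson intervals, for counting error alone. The solution, overlap and motif search were tested on simulated data. The work was done in Python 3.11.15, with pandas 2.3.3, numpy 2.4.6, pysam 0.24.0, scipy 1.17.1 and matplotlib 3.10.9.

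Named in full are the members with a promoter peak, those with one in a single replicate or at another TSS only, the genes with the most gene-body regions and the 5 strongest of these regions, and from each list the 3 highest genes and those without a peak, of which some are given by count. Some genes of the lists are not reported here by name. The members, lists and tests were chosen with earlier results of these data known. The series text calls the replicates biological, without further detail.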

Additional observations from a re-analysis of the deposited data

How the results depend on the processing

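For 7 results, 43 values were computed under 12 alternatives, and 41 of them stayed within 1.5 times the main count, the replicate SD or the counting interval. The number of open receptor promoters, 22, was 21 when peaks under a −log10 q of 5 were left out (PPARG lost), 20 with equal numbers of the strongest peaks (PPARG and RXRA lost), 20 within 500 bp of the TSS or by the summit alone (PPARG and NR2F1 lost both times) and 27 with any annotated TSS. With each replicate left out it was 23 either time, with NR2F6 or RORB gained. The median fold enrichment at open promoters was 5.72 to 7.38 with each replicate left out. These are close to the values from which the replicate SD was computed, so they could hardly have fallen outside it. The gene-body regions numbered 56 to 79 with each replicate left out, by construction since 1 list was then enough, and 79 without replicate 1. The AP-1 share of gene-body regions was 23.5% within 50 bp of the summit, which is a smaller window (22.9% of the regions of all genes), 47.1% with the site spelled TGANTCA (40.5% of all) and 31.6% to 32.1% with each replicate left out. No paired analysis was possible because both samples are of 1 condition. The weakest listed summits had 16 and 13 fragments, so weaker opening at the receptor genes was not detectable.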

Other observations

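The order of the receptor promoters depended on the scale. NR4A3 had rank 14 by mean fold enrichment and rank 3 by fragments, and NR2F1 had rank 21 by fold enrichment and rank 9 by fragments. At 6 of the 22 open promoters the local background was over 1.2 times the genome-wide value in both replicates, and the fold enrichment is divided by this background. In percent of open protein-coding genes with a lower value, NR4A3 was at 17.3 by fold enrichment and at 88.1 by fragments, and NR2F1 at 1.42 and 53.7.

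Of the 22 receptor genes without a promoter peak, 12 had no peak at any annotated TSS or in the gene body in either replicate. Over all 22, the nearest summit was on median 44.1 kb from the TSS in replicate 1 and 43.6 kb in replicate 2. Neither the count of 12 nor these distances were computed over all protein-coding genes, so whether they are unusual is not known.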
